A study of Danio rerio with 15 samples.

Results

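Skeletal muscle sarcomere genes were followed in whole zebrafish larvae of the wild-type AB strain at 120 hours post-fertilization. The set held 50 gene symbols, named by their role in the sarcomere. Among them were the giant scaffold genes, myosins, troponins, actins, Z-disc and M-band genes, and the chaperones that fold and dock myosin. The set was chosen with earlier results of these data known, so no p is given for it. These symbols matched 52 of the 32520 rows of the deposited gene table, and 51 of the 52 passed the filter on low counts that left 21477 rows for testing. The symbol myhz1.1 had a row on chromosome 5 and another on chromosome 22, and smyhc2 had a row on chromosome 24 and another on an unplaced scaffold. The scaffold row of smyhc2, with 0 to 3 counts per library, was the one left out. Exposed larvae received 0.1, 1, 5 or 10 µM of the persistent fluorinated surfactant PFOS (perfluorooctanesulfonic acid) and the others were controls, with 3 RNA-seq libraries in each of the 5 groups. The labels give no genotype change, transgene or vehicle, and they do not say whether libraries came from separate clutches or exposures. P-values therefore measure only how these libraries spread, and that spread may be technical.

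The sarcomere is the contractile unit of striated muscle. Myosin thick filaments slide past actin thin filaments, troponin and tropomyosin on the thin filament switch contraction on with calcium, and Z-discs and M-bands hold the filaments in register. Titin spans from Z-disc to M-band and nebulin runs along the thin filament. Larval zebrafish trunk muscle is mostly fast fibre, with a thin superficial layer of slow fibre that uses its own myosin, troponin and binding-protein genes. Newly made myosin is folded by the chaperone Unc45b together with Hsp90aa1.1 and the methyltransferase Smyd1b.

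Library totals ran from 11956657 to 19978125 estimated counts. In controls the 52 rows took 9.51 to 10.2% of counts. After exposure the range was 9.24 to 9.85% for 0.1 µM, 9.32 to 9.77% for 1 µM, 9.29 to 9.84% for 5 µM and 7.97 to 8.26% for 10 µM, so the 10 µM libraries lay below all others. Skeletal muscle markers outside the set were abundant, with a summed level of 7830.4, 8094 and 8303 CPM (counts scaled to the library total) at 10 µM and 8754, 9287 and 8413 CPM in controls. That sum is set mostly by the most abundant of the 6 genes. Gene by gene, 5 of the 6 were below control, with a median log2 fold change of -0.37. Because whole larvae were sequenced, fewer muscle cells and less RNA per muscle cell cannot be told apart. The 10 µM columns carry the numbers 2, 3 and 4, which do not match the sample titles, and these libraries are named by those numbers. PFOS 5 µM replicate 3 stood apart in several genes, both fast and slow, as given with the lower doses.

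At 10 µM, 18 of the 51 tested rows (35.3%) were lower than in controls in edgeR's quasi-likelihood test with Benjamini-Hochberg adjustment over all genes, and 0 were higher. Of all 21477 genes, 6.65% were lower and 7.78% higher by the same rule, shares against which the counts of each class of members below are to be read too. Because the members were chosen with earlier results known, the difference from those shares was not tested. At an unadjusted p under 0.05, 25 rows were lower (14.1% of all genes) and 2 were higher (15.4% of all genes). The log2 fold change was below 0 for 42 of the 51 rows, against 51% of all genes, and its median was -0.29, against -0.01 over all genes. In 27 rows all 3 libraries at 10 µM were below all 3 control libraries, where the share over all genes was 18.3%, and in 3 rows they were above, where it was 18.6%. The range was narrow: the largest fall was -0.94 on the log2 scale, in unc45b, and the smallest fall past the threshold was -0.36, in ckmb. Of the 18 calls, 10 held whichever 1 library was left out, and the count was 11 without the 10 µM library numbered 2 (2.02% of all genes were then lower). The calls lost on leaving out a library were those of ckmb, mylpfa, tnnc2, acta1b, tnni2a.4, myhz1.2, tpma and ldb3a.

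**Figure D1:**
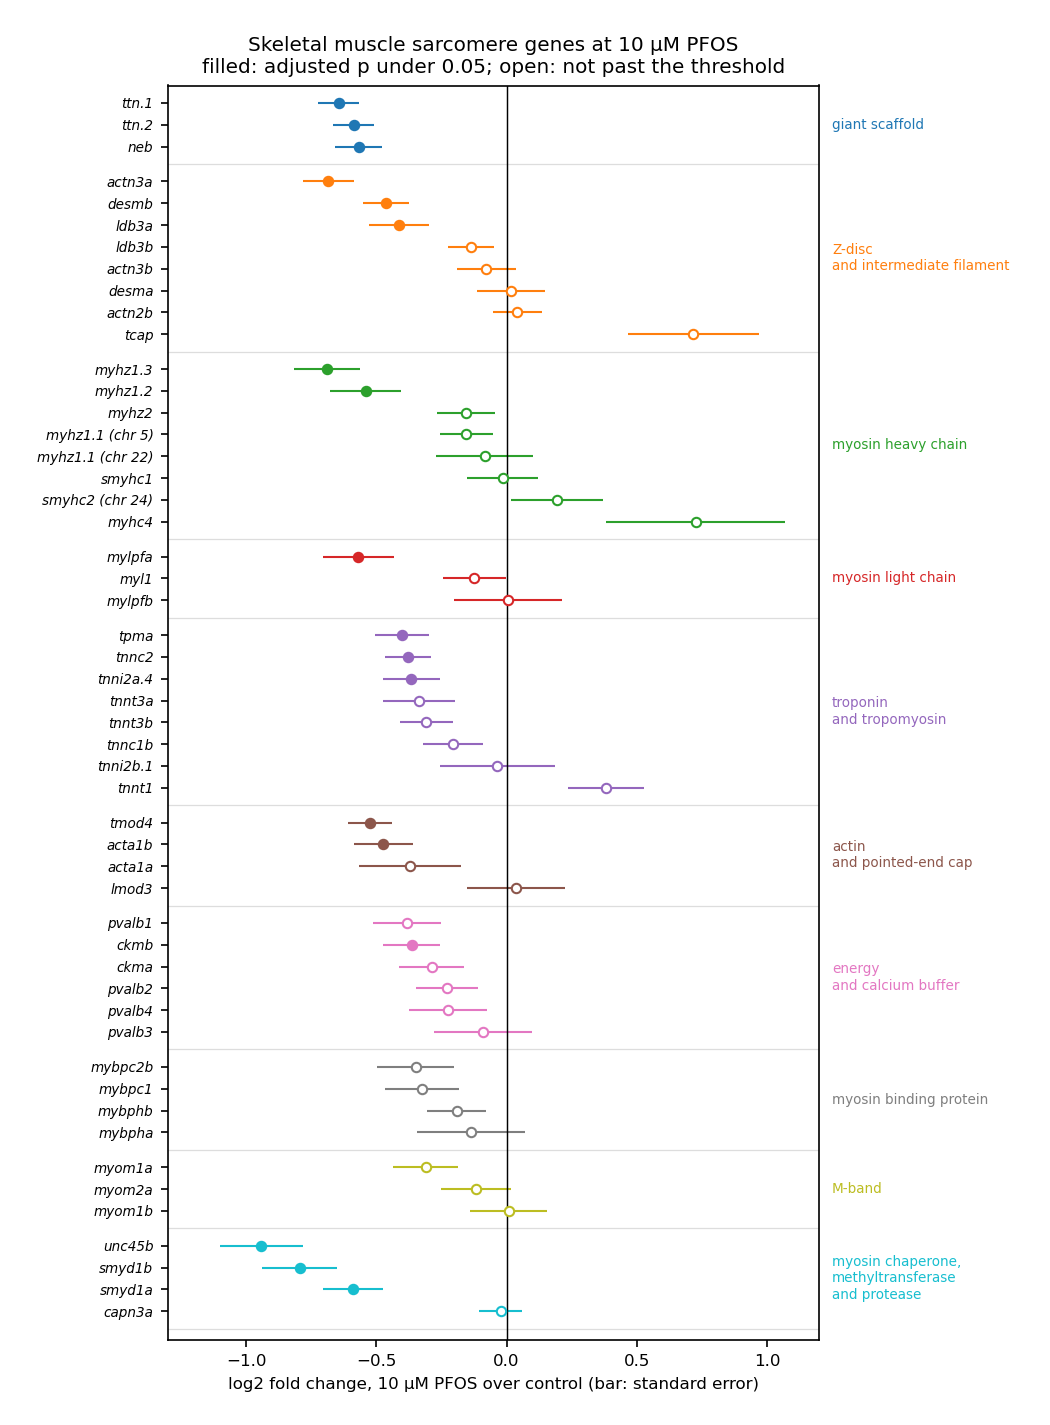
Log2 fold change of each sarcomere gene at 10 µM PFOS over control, grouped by role, with the standard error as a bar. Filled points passed an adjusted p of 0.05. The 18 filled points all lie left of 0, and unc45b at -0.94 lies farthest left.

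The 3 giant scaffold genes all fell. The gene ttn.1 encodes titin, the elastic filament that spans the sarcomere from Z-disc to M-band, and lies on chromosome 9 from 42732992 to 42873700 (coordinates as deposited, of a genome build not given in the sources used here). Its level was 1475, 1563 and 1551 CPM at 10 µM and 2328, 2358 and 2488 CPM in controls, groups that did not overlap, with a log2 fold change of -0.64 (adjusted p = 3.41e-04, SE 0.0797). The neighbouring titin gene ttn.2 (chromosome 9 from 42894845 to 43073960) had 1343, 1438 and 1404 CPM at 10 µM and 2024, 2092 and 2171 CPM in controls. The 10 µM libraries of ttn.2 lay well below the controls, and its log2 fold change was -0.59 (adjusted p = 4.70e-04, SE 0.0781). Nebulin, encoded by neb on chromosome 9 from 22805138 to 22892838, runs along the thin filament and had 806, 1016 and 838 CPM at 10 µM and 1373, 1341 and 1231 CPM in controls. The library numbered 3 was the highest of the 10 µM libraries for neb and was still below every control, and the log2 fold change was -0.57 (adjusted p = 0.00159, SE 0.0910). The losses amounted to 36.0% for ttn.1, 33.4% for ttn.2 and 32.5% for neb.

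The median log2 fold change of these 3 genes was -0.59, against -0.23 for the other 48 tested rows; that difference was not tested. Together they took 0.376, 0.413 and 0.387% of counts at 10 µM and 0.560, 0.575 and 0.596% in controls. The titin genes kept nearly the same proportion to each other: ttn.1 held 52.1 to 52.5% of their joint counts at 10 µM and 53.0 to 53.5% in controls, ranges that did not overlap but differed by little. Over all genes, log2 fold changes at 10 µM differed with gene length, which was computed from the deposited counts and per-length values. The median was -0.11 over the 129 genes longer than 10 kb, of which 10.9% were called lower, and 0.09 over the 3948 genes shorter than 1 kb, of which 2.94% were. With the gene-length trend of each library removed, ttn.1 was at -0.48 and the median of the giant scaffold genes was also -0.48, and all 3 still passed the threshold. Only 129 of the 20581 genes with a length exceeded 10 kb, while ttn.1 had 88298 bases and ttn.2 had 67174. At their lengths the trend thus rests mostly on far shorter genes, so its removal does not show how genes of titin length would fare. The computed length of neb was only 3207 bases, although its main transcript neb-208 has 19148. The correction thus treated neb as a shorter gene, and its result does not show how a gene of its full length would fare.

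**Figure D2:**
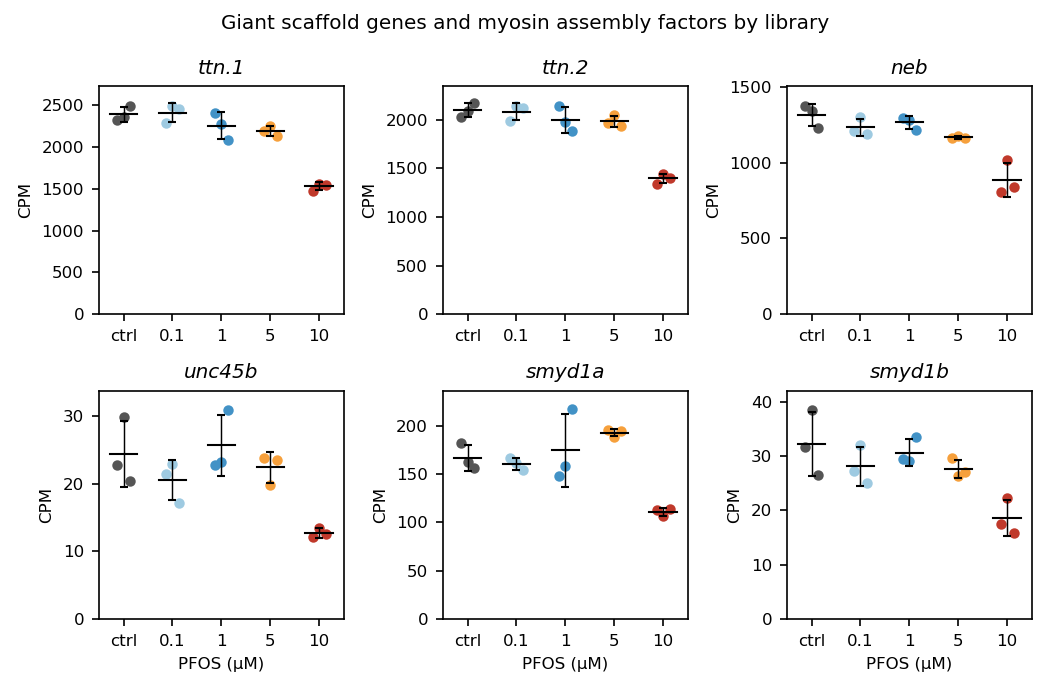
CPM of the giant scaffold genes (top) and of the myosin chaperone and methyltransferase genes (bottom) in each library, by PFOS group; lines and bars are means ± SD of 3 libraries. In all 6 genes the 3 libraries at 10 µM lie below the 3 control libraries, and ttn.1 averaged 1529.8 ± 47.9 CPM at 10 µM against 2391 ± 85.2 CPM in controls.

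Among the genes that fold or modify myosin or cut muscle proteins, 3 of 4 fell, and unc45b had the largest fall of all members. The gene unc45b encodes the myosin chaperone of striated muscle and had 12.1, 13.5 and 12.5 CPM at 10 µM and 22.7, 29.8 and 20.4 CPM in controls. All 10 µM libraries were below all controls, and the log2 fold change was -0.94 (adjusted p = 0.00221, SE 0.159), a loss of 47.9%. The gene smyd1b, whose methyltransferase is needed for thick filament assembly in zebrafish, had 17.6, 22.4 and 15.9 CPM at 10 µM and 31.6, 38.5 and 26.6 CPM in controls, with a log2 fold change of -0.79 (adjusted p = 0.00326, SE 0.145). Its paralog smyd1a, which is more abundant in these larvae, had 113, 106 and 114 CPM at 10 µM and 182, 163 and 156 CPM in controls. The smyd1a groups did not overlap either, and the log2 fold change was -0.59 (adjusted p = 0.00472, SE 0.116). The muscle calpain protease gene capn3a averaged 155 ± 10.0 CPM at 10 µM and 158 ± 7.71 CPM in controls (SD, n = 3 each), a log2 fold change of -0.02 that did not pass.

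Partners of these proteins outside the set came from a list of 21 tested genes for assembly chaperones and muscle protein turnover, of which 4 were higher and 3 lower, beside 7.78% and 6.65% of all genes. The chaperone gene hsp90aa1.1 had 45.4, 51.3 and 42.3 CPM at 10 µM and 98.1, 109 and 76.0 CPM in controls, a log2 fold change of -1.03 (adjusted p = 0.00183, SE 0.168). Its close paralog hsp90aa1.2, with which it may share reads, was higher, with a log2 fold change of 0.35 (adjusted p = 0.0119, SE 0.0830). The muscle ubiquitin ligase gene fbxo32, known as atrogin-1 in mammals, had 90.1, 72.3 and 94.4 CPM at 10 µM and 16.1, 24.0 and 19.3 CPM in controls. Every 10 µM library was above every control by a wide margin, and fbxo32 rose by 2.11 (adjusted p = 3.45e-04, SE 0.263) on the log2 scale. The ligase genes trim63a and trim55b, of the MuRF family, rose by 1.08 and 0.93.

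Some fast myosin heavy chain genes fell and others did not pass, and the slow ones did not pass the test. Differences among these genes were not tested. The heavy chain is the motor protein of the thick filament. The fast genes myhz1.1, myhz1.2, myhz1.3, myhz2 and myhc4 lie side by side on chromosome 5, between 32206378 and 32309129, and are near-identical in sequence, so the split of reads among them is uncertain. Of these, myhz1.2 and myhz1.3 fell. The gene myhz1.3 had 1884, 2180.4 and 1916 CPM at 10 µM and 3299.9, 3491 and 2843 CPM in controls, with no overlap and a log2 fold change of -0.69 (adjusted p = 0.00341, SE 0.127). The gene myhz1.2 had 6326, 6564 and 6026 CPM at 10 µM and 9693, 10366 and 7461 CPM in controls, with a log2 fold change of -0.54 (adjusted p = 0.0175, SE 0.137). The most abundant of them, myhz1.1 on chromosome 5, had 19237, 21060.0 and 19695 CPM at 10 µM and 23061, 23211 and 20469 CPM in controls, where the library numbered 3 lay above the lowest control, and its log2 fold change was -0.15 (adjusted p = 0.335, SE 0.102). For myhz2 the levels were 3976, 5012 and 4360.2 CPM at 10 µM and 5508, 4491 and 4854 CPM in controls. These overlapped, with a log2 fold change of -0.15 (adjusted p = 0.381, SE 0.111). The myhz1.1 row on chromosome 22 had a log2 fold change of -0.08 (adjusted p = 0.804). The least abundant fast gene, myhc4, was higher in each 10 µM library than in each control (194, 152 and 177 CPM against 78.2, 94.3 and 144 CPM), yet its log2 fold change of 0.73 had an SE of 0.344 and an adjusted p of 0.171.

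The slow heavy chain gene smyhc1, the main myosin of the superficial slow fibres, had 1144, 1304 and 1118 CPM at 10 µM and 1211, 1166 and 1227 CPM in controls. Its groups overlapped, and the log2 fold change was -0.02 (adjusted p = 0.955, SE 0.136), which became 0.03 with the length trend removed. The gene smyhc2, next to it on chromosome 24, had 204, 240.3 and 208 CPM at 10 µM and 182, 194 and 195 CPM in controls, and its 10 µM libraries lay above the controls. Its log2 fold change was 0.19 (adjusted p = 0.494, SE 0.175), which did not pass. The set's 9 myosin heavy chain rows were taken as a total, without heavy chain genes outside the set. The slow genes took 4.02, 4.15 and 3.89% of its counts at 10 µM and 3.18, 3.12 and 3.76% in controls. These shares did not overlap. With 3 libraries a group no exact test of a single share could reach the threshold, and none was run. Within the same total, the 2 myhz1.1 rows together held 58.5 to 59.5% at 10 µM and 54.4 to 55.8% in controls. Per length, on the deposited RPKM scale (read counts scaled for transcript length and library total, used here for 12 libraries without 10 µM), smyhc1 stood at 209 ± 7.42 RPKM and myhz2 at 857 ± 80.2 RPKM in controls (SD, n = 3).

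**Figure D3:**
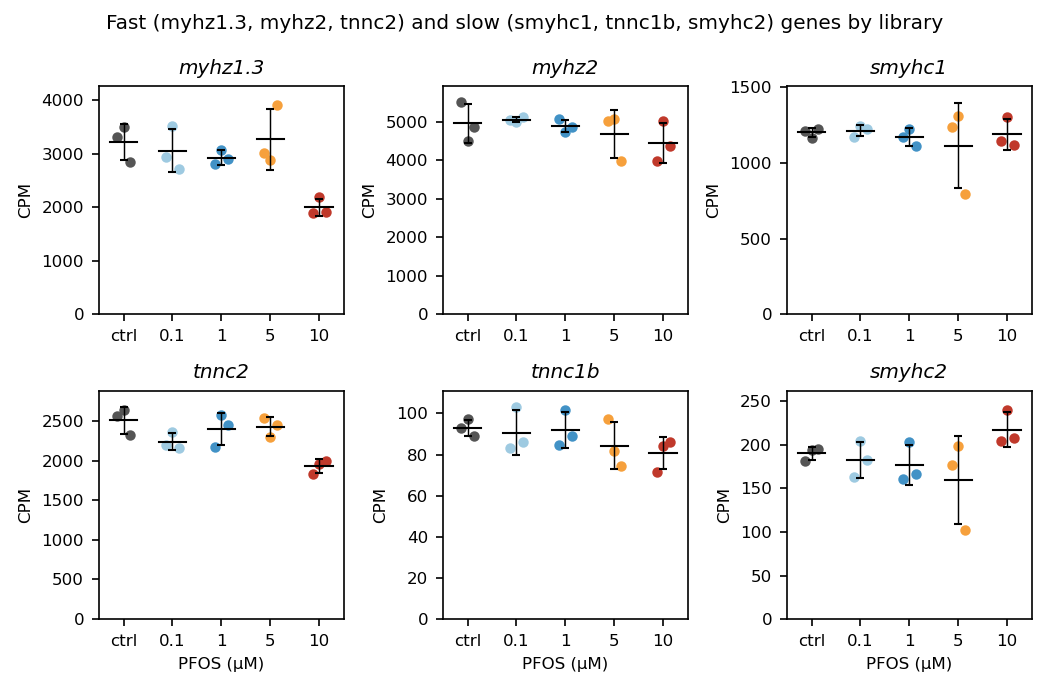
CPM of fast genes (myhz1.3, myhz2, tnnc2) and slow genes (smyhc1, tnnc1b, smyhc2) in each library, by PFOS group; lines and bars are means ± SD of 3 libraries. At 10 µM the fast genes myhz1.3 and tnnc2 and the slow gene tnnc1b lie below the controls. The fast gene myhz2 and the slow gene smyhc1 overlap them, and the slow gene smyhc2 lies above. The low 5 µM point of smyhc1 is replicate 3.

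Over fibre classes, assigned from the known fibre type of each gene, 6 of 21 fast rows fell and 0 of 5 slow rows did, beside 6.65% of all genes, with median log2 fold changes of -0.23 and -0.02. The 5 slow rows are too few to set their count of 0 apart from that share of all genes. Without the 10 µM library numbered 2 the fast count was 3 (2.02% of all genes were lower). With only the 2 groups compared it was 9 (8.7%), beside 1 slow row, mybpc1, and 1 fast row was higher, myhc4. The fast count was also 9 with the length trend removed (6.31%), and it was 8 with DESeq2 as the tool (1413 of 27099 genes). The slow genes were smyhc1, smyhc2, tnnt1, tnnc1b and mybpc1, and their values ran from -0.32 in mybpc1 to 0.38 in tnnt1. The difference between the classes was not tested, and a gene that misses the threshold is not shown to be unchanged. The fast median was -0.38 with the length trend removed, and the slow median was then 0.03.

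Myosin light chains, which stiffen the myosin neck, gave 1 fall among 3 genes, all of the fast type. Without control replicate 3 the count was 0 (2.92% of all genes were then lower). The regulatory light chain gene mylpfa had 4116, 3646 and 4262 CPM at 10 µM and 5231, 6179 and 6432 CPM in controls. Its 10 µM libraries were below every control, and it fell by 0.569 on the log2 scale (SE 0.136, adjusted p = 0.0131). The paralog mylpfb averaged 701 ± 146 CPM at 10 µM and 697 ± 202 CPM in controls, and myl1, the essential light chain gene, averaged 554 ± 51.5 CPM and 603 ± 54.9 CPM (SD, n = 3 each). Their log2 fold changes were 0.01 and -0.12, neither of which passed. A further fast light chain gene outside the set, mylz3, did fall, with 2998, 2949 and 3178 CPM at 10 µM and 4589, 4439 and 4124 CPM in controls and a log2 fold change of -0.53 (adjusted p = 0.00157, SE 0.0843).

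Troponin and tropomyosin genes of the thin filament switch gave 3 falls among 8. All 3 calls, of tnnc2, tnni2a.4 and tpma, were lost without the 10 µM library numbered 2 (2.02% of all genes were then lower). Without control replicate 1 or 2, 1 of 8 passed (3.64% and 4.81% of all genes were then lower). The fast troponin C gene tnnc2, the calcium sensor, had 1829, 1960.4 and 1998 CPM at 10 µM and 2556, 2643 and 2318 CPM in controls, with no overlap and a log2 fold change of -0.38 (adjusted p = 0.0115, SE 0.0879). Its slow counterpart tnnc1b had 71.8, 84.3 and 86.2 CPM at 10 µM and 93.0, 97.1 and 89.3 CPM in controls. These too did not overlap, but the log2 fold change of -0.20 (adjusted p = 0.248, SE 0.114) did not pass. The fast troponin I gene tnni2a.4, the inhibitory subunit, had 1047, 977 and 1213 CPM at 10 µM and 1425, 1504 and 1239.9 CPM in controls, with a log2 fold change of -0.36 (adjusted p = 0.0383, SE 0.110). The other fast troponin I gene, tnni2b.1, had a log2 fold change of -0.04 (adjusted p = 0.937).

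Troponin T anchors the complex to tropomyosin. The main fast gene tnnt3b had 2239.7, 2560.5 and 2553 CPM at 10 µM and 3109, 3167 and 2826 CPM in controls. Its groups did not overlap and it narrowly missed the threshold, at -0.31 (adjusted p = 0.0536, SE 0.102). The fast gene tnnt3a had 86.6, 94.9 and 94.8 CPM at 10 µM and 120.0, 118 and 111 CPM in controls, also without overlap, and its log2 fold change was -0.33 (adjusted p = 0.117, SE 0.138). The slow gene tnnt1 had 9.75, 9.47 and 13.4 CPM at 10 µM and 7.61, 8.95 and 8.47 CPM in controls. Here the 10 µM libraries were above the controls, and the log2 fold change was 0.38 (adjusted p = 0.0923, SE 0.147), which did not pass. As a share of tnnt3b counts, tnnt1 counts were 0.435, 0.370 and 0.526% at 10 µM and 0.245, 0.283 and 0.300% in controls, ranges that did not overlap. The 0.1 µM libraries, at 0.321, 0.327 and 0.378%, were also above every control and overlapped the 10 µM range. At 1 and 5 µM the shares overlapped those of controls. The tropomyosin gene tpma had 4584, 5427 and 4913 CPM at 10 µM and 6988, 7001 and 5734 CPM in controls. All 10 µM libraries were below all controls, and tpma fell by 0.402 on the log2 scale (SE 0.105, adjusted p = 0.0196).

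Of the actin genes, acta1b fell and acta1a did not pass; they are close copies, so reads may be split between them unevenly. The gene acta1b, a skeletal alpha-actin gene, had 817, 999 and 832 CPM at 10 µM and 1186, 1358 and 1131 CPM in controls, with no overlap and a log2 fold change of -0.47 (adjusted p = 0.0137, SE 0.114). The gene acta1a had 162, 164 and 170.4 CPM at 10 µM and 181, 246 and 214 CPM in controls. Its 10 µM libraries also lay below the controls, and its log2 fold change was -0.37 (adjusted p = 0.221, SE 0.196). The gene tmod4, for tropomodulin, which caps the pointed end of the thin filament, had 135, 145 and 152 CPM at 10 µM and 206, 215 and 200.4 CPM in controls. The tmod4 groups were well apart, with a log2 fold change of -0.52 (adjusted p = 0.00160, SE 0.0840). The leiomodin gene lmod3, for an actin nucleator at that same end, averaged 9.81 ± 0.294 CPM at 10 µM and 9.56 ± 1.78 CPM in controls (SD, n = 3 each), and did not pass.

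Of 8 Z-disc and intermediate filament genes 3 fell, each with a paralog that did not pass. Differences between paralogs were not tested. The alpha-actinin gene actn3a, for the fast-fibre crosslinker of Z-disc actin, had 1034, 1220.2 and 1108 CPM at 10 µM and 1761, 1901 and 1742 CPM in controls. It fell by 37.8% with no overlap, at -0.68 (adjusted p = 7.98e-04, SE 0.0978). Its paralog actn3b averaged 698 ± 64.7 CPM at 10 µM and 737 ± 99.2 CPM in controls, and actn2b averaged 38.7 ± 3.18 CPM and 37.6 ± 1.90 CPM (SD, n = 3 each). The log2 fold changes of -0.08 and 0.04 did not pass. For desmin, the intermediate filament that links neighbouring Z-discs, the minor gene desmb had 21.6, 20.6 and 21.0 CPM at 10 µM and 30.4, 27.5 and 29.1 CPM in controls, and the log2 fold change was -0.46 (adjusted p = 0.00406, SE 0.0878). The major gene desma had a log2 fold change of 0.02 (adjusted p = 0.946, SE 0.131), so its mean level hardly differed. The Z-disc adaptor gene ldb3a, known as ZASP or cypher in mammals, had 82.3, 114 and 99.8 CPM at 10 µM and 129, 143 and 123 CPM in controls. Its groups did not overlap, and the log2 fold change was -0.41 (adjusted p = 0.0269, SE 0.115). That call held in 2 of the 6 fits that leave out 1 library. The paralog ldb3b had a log2 fold change of -0.14 (adjusted p = 0.325). Telethonin, encoded by tcap, caps titin at the Z-disc and had 89.7, 64.8 and 113 CPM at 10 µM and 37.1, 73.4 and 52.1 CPM in controls. The library numbered 3 at 10 µM lay below control replicate 2, so the groups overlapped, and the log2 fold change was 0.72 (adjusted p = 0.0683, SE 0.252). The call for tcap depended on the libraries and on the model: it passed at 0.72 (adjusted p = 0.0442) with only the 2 groups compared, at 1.00 (adjusted p = 0.0261) with control replicate 2 left out, and at 0.90 (adjusted p = 0.0376) with the 10 µM library numbered 3 left out.

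M-band and myosin binding protein genes gave 0 calls among 7, too few genes to set that count apart from the 6.65% of all genes that were lower. With only the 2 groups compared 2 were lower, mybpc1 and mybpc2b, beside 8.7% of all genes. The myomesin genes, for the crosslinkers of thick filaments at the M-band, had log2 fold changes of -0.31 in myom1a (adjusted p = 0.105), 0.01 in myom1b and -0.12 in myom2a. The binding proteins decorate the thick filament. The fast gene mybpc2b had 56.1, 72.0 and 67.0 CPM at 10 µM and 80.6, 81.8 and 86.1 CPM in controls. Its groups did not overlap, and the log2 fold change of -0.35 (adjusted p = 0.122, SE 0.146) did not pass. The slow gene mybpc1 had 49.5, 55.3 and 50.9 CPM at 10 µM and 63.4, 60.8 and 70.7 CPM in controls, again without overlap, and its log2 fold change was -0.32 (adjusted p = 0.140, SE 0.142). The fast and slow binding protein genes had nearly the same estimate. The myosin binding protein H genes mybpha and mybphb did not pass either. The gene mybpha had 23.2, 32.2 and 32.0 CPM at 10 µM and 33.0, 30.1 and 33.1 CPM in controls, which overlapped, with a log2 fold change of -0.14 (adjusted p = 0.702, SE 0.207).

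Energy and calcium-buffer genes gave 1 fall among 6 (6.65% of all genes were lower), and that call was lost whichever 1 library was left out. With the length trend removed 3 were lower, ckmb, pvalb1 and pvalb2, beside 6.31% of all genes. With DESeq2 as the tool 2 were lower, ckmb and pvalb1, beside 1413 of 27099 genes. The muscle creatine kinase gene ckmb, whose enzyme regenerates ATP beside the myofibril, had 3494, 3799 and 3785 CPM at 10 µM and 5198, 4606 and 4462 CPM in controls, without overlap and with a log2 fold change of -0.36 (adjusted p = 0.0346, SE 0.108). Its paralog ckma had 4447, 3965 and 4576 CPM at 10 µM and 6070.4, 4822 and 4963 CPM in controls. Those groups did not overlap, and the log2 fold change was -0.29 (adjusted p = 0.132, SE 0.124). The parvalbumins buffer calcium in fast fibres. The gene pvalb1 had 5216, 4115 and 5730.3 CPM at 10 µM and 6182, 6159 and 7282 CPM in controls, without overlap, and its log2 fold change was -0.38 (adjusted p = 0.0615, SE 0.130). The other parvalbumin genes had log2 fold changes of -0.23 in pvalb2, -0.09 in pvalb3 and -0.23 in pvalb4, with adjusted p-values from 0.211 to 0.791.

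Per length, the order of the members in controls spanned several orders of magnitude on the RPKM scale. The highest were pvalb1 at 15521 ± 1717 RPKM, pvalb2 at 12944 ± 86.5 RPKM and tpma at 10417 ± 866 RPKM (SD, n = 3). Below them came tnnt3b at 4884 ± 225 RPKM and mylpfa at 4847 ± 594 RPKM, whose intervals of 1 SD overlapped. The chaperone gene unc45b, at 6.94 ± 1.17 RPKM, and lmod3, at 4.72 ± 0.850 RPKM, were the lowest of the tested members. Titin was also low per length, at 26.9 ± 1.42 RPKM for ttn.1 and 31.0 ± 1.59 RPKM for ttn.2, although they were among the higher members by CPM, which is not scaled by length. Across the 51 tested members the Spearman correlation of the log2 fold change with gene length was -0.053, and across 20581 genes with a length it was -0.152; these are descriptions across genes, which are not independent replicates.

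**Figure D4:**
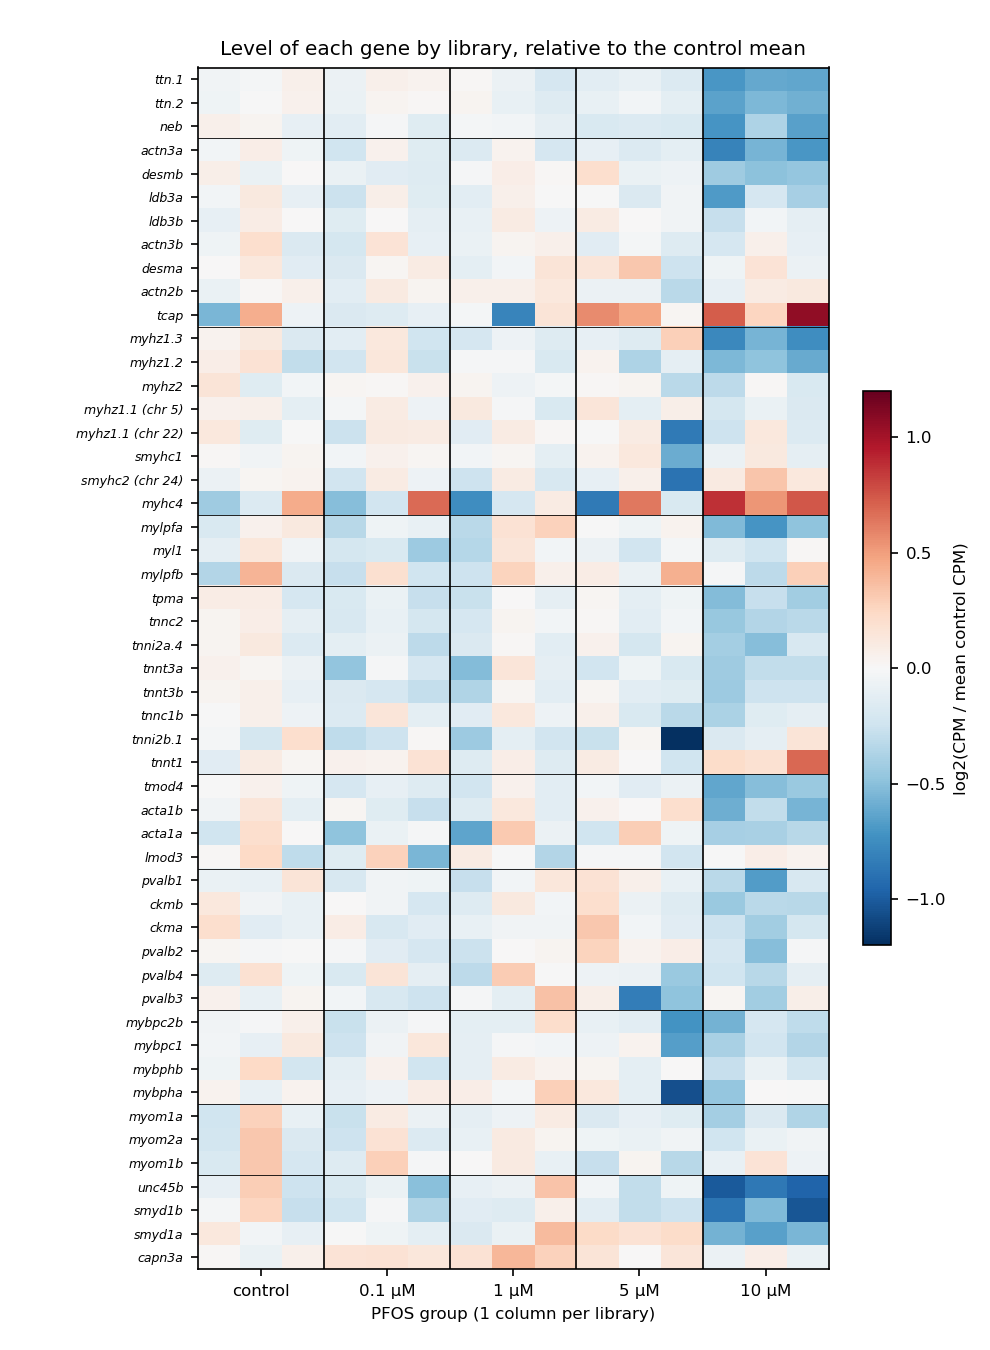
Log2 ratio of each member's CPM to its control mean, with 1 column per library ordered by PFOS group and members grouped by role. The 10 µM columns are low for most rows. The lowest log2 fold change fitted at 10 µM was -0.94, in unc45b, and single libraries can lie beyond a fitted value. The column of PFOS 5 µM replicate 3 is low in smyhc1, smyhc2, mybpha and tnni2b.1.

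Transcript rows gave a finer view, and their counts are estimates that rest on how reads were divided among overlapping transcripts. The members had 179 transcripts, of which 130 passed the filter. At 10 µM 31 of them were lower (3.13% of all transcripts tested) in 19 genes, and 6 were higher (3.11% of all transcripts tested) in 2 genes, mybphb and tpma. Without the 10 µM library numbered 2, 10 were lower and 2 higher. Leaving out number 4 gave 14 and 3, and leaving out control replicate 1 gave 16 and 3. The shares of all transcripts were not computed in those settings. For titin, ttn.1-201 fell by 0.645 on the log2 scale, and ttn.2-202 and ttn.2-203 fell by 0.679 and 0.585. For neb, the long transcript neb-208, of 19148 bases, held 73.0, 71.6 and 72.4% of the gene's counts at 10 µM and 70.3, 70.3 and 71.9% in controls. Its level was 588, 728 and 607 CPM at 10 µM and 966, 944 and 886 CPM in controls, a log2 fold change of -0.54 (adjusted p = 0.00608, SE 0.0847).

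The gene mybphb did not pass as a whole. It lies on chromosome 6 from 55032439 to 55082533 and had 754, 864 and 788 CPM at 10 µM and 883, 1080.0 and 786 CPM in controls, which overlapped, with a log2 fold change of -0.19 (adjusted p = 0.283, SE 0.115). Its transcripts did not move together. The protein-coding transcript mybphb-202, of 3173 bases, had 121, 217 and 133 CPM at 10 µM and 285, 349 and 243 CPM in controls, and it fell, at -0.89 (adjusted p = 0.0188, SE 0.189). The short transcript mybphb-205, of 434 bases, had 149.7, 93.7 and 134 CPM at 10 µM and 64.2, 77.8 and 63.8 CPM in controls, and it rose, at 0.87 (adjusted p = 0.0240, SE 0.199). In both, the groups did not overlap and the 10 µM library numbered 3 was nearest the controls. The major transcript mybphb-201, of 1210 bases, had 472, 542 and 506 CPM at 10 µM and 521, 645 and 468 CPM in controls, with a log2 fold change of -0.10 (adjusted p = 0.669, SE 0.118). The scarce mybphb-207, the longest, fell, at -0.72 (adjusted p = 0.0368, SE 0.183), and mybphb-204 did not pass, at 0.85 (adjusted p = 0.264, SE 0.421).

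As shares of the gene's counts, mybphb-202 held 16.1, 25.1 and 16.9% at 10 µM and 32.3, 32.3 and 30.9% in controls. The share of mybphb-205 was 19.8, 10.8 and 17.0% at 10 µM and 7.27, 7.20 and 8.11% in controls. Over the 9 libraries at 0.1, 1 and 5 µM, mybphb-202 held 31.0% to 34.2% and mybphb-205 held 5.55% to 9.70%. The transcripts mybphb-202 and mybphb-207 end at 55082533, mybphb-204 at 55044874 and mybphb-205 at 55044818, so the transcripts that fell span a longer stretch of the gene than the one that rose. Usage within the gene was not tested by a model. With the 10 µM library numbered 2 left out, mybphb-202 was at -0.74 (adjusted p = 0.0822) and mybphb-205 at 0.73 (adjusted p = 0.110), and neither passed. Both calls were also lost without the 10 µM library numbered 4 or control replicate 1, that of mybphb-202 without control replicate 2 and that of mybphb-205 without control replicate 3; mybphb-207 passed in 1 of 6 such settings.

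The tropomyosin gene tpma had a like pattern, and was singled out after its values were seen. Its long transcript tpma-202, of 2835 bases, had 1009, 2562 and 1229.6 CPM at 10 µM and 4117, 4400.3 and 3250.5 CPM in controls, and it fell, at -1.29 (adjusted p = 0.0159, SE 0.262). Its share of the gene's counts was 22.0, 47.2 and 25.0% at 10 µM and 58.9, 62.7 and 56.6% in controls, with the library numbered 3 again nearest the controls. Of its short transcripts, of at most 558 bases, 5 rose: tpma-201 by 1.92 on the log2 scale, tpma-206 by 1.58, tpma-207 by 3.53, tpma-208 by 0.78 and tpma-210 by 2.16. The short tpma-203, tpma-204 and tpma-205 did not pass, so the pattern did not hold for every short transcript. The most abundant short one in controls, tpma-203, had 899, 861 and 937 CPM at 10 µM and 1186, 1126 and 959 CPM in controls. The short tpma-201 had 757, 415 and 875 CPM at 10 µM and 149.6, 128 and 261 CPM in controls. For tpma-207 the levels were 65.8, 5.08 and 66.3 CPM at 10 µM and 4.64, 4.22 and 3.00 CPM in controls, so that 2 of the 10 µM libraries were far above the controls and the library numbered 3 was only slightly above them. The calls of tpma-206 and tpma-210 held whichever 1 library was left out, those of tpma-201 and tpma-208 in 1 and 0 of the 6 settings, that of tpma-207 in 4, and that of tpma-202 in 3. Without the 10 µM library numbered 2, adjusted p-values were 0.142 for tpma-201 and 0.142 for tpma-208. Among other members, ckmb-202 fell by 1.39 and ldb3a-209 by 1.21 on the log2 scale, more than their genes. Although tnnt3b missed the threshold as a gene, its transcripts tnnt3b-203, tnnt3b-204, tnnt3b-210 and tnnt3b-216 passed, with log2 fold changes of -0.52, -0.86, -0.85 and -0.99. How these ckmb, ldb3a and tnnt3b transcripts fared with a library left out was not followed singly.

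**Figure D5:**
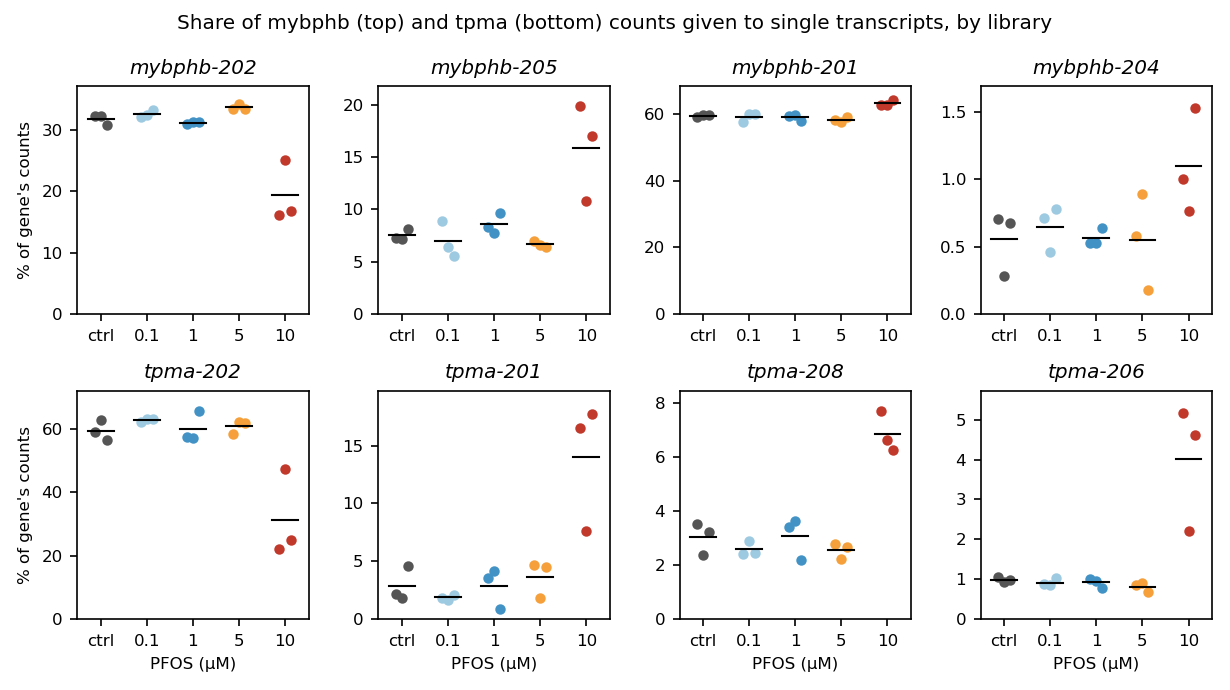
Percent of the counts of mybphb (top) and tpma (bottom) given to the 4 transcripts of each gene whose mean share differed most between 10 µM and control, in each library by PFOS group; lines are means of 3 libraries. At 10 µM mybphb-202 held 16.1, 25.1 and 16.9% and tpma-202 22.0, 47.2 and 25.0%, below every other library, while mybphb-205 and tpma-201 were above every other library.

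The lower doses gave no call. At 5, 1 and 0.1 µM 0 of 51 rows passed against control, and 0% of all genes did. At an unadjusted p under 0.05, 0 rows passed at 5 µM (3.9% of all genes) and 1 at 1 µM, capn3a, higher at a log2 fold change of 0.29 (unadjusted p = 0.00316 in the edgeR fit; 0.871% of all genes were higher and 1.09% lower). At 0.1 µM 2 rows were lower (0.605% of all genes), myl1 at -0.27 and tnnt3b at -0.22, and 0 were higher (0.526% of all genes). At 0.1 and 1 µM these shares of all genes were below what an unadjusted p of 0.05 gives with no effect. The p-values there thus ran large, and small differences could be missed. This fit had no term for the replicate numbers, and the cause was not tested. DESeq2 also called 0 rows at each of these doses. The medians were -0.09 at 0.1 µM, -0.05 at 1 µM and -0.08 at 5 µM, and 42 rows (50.2% of all genes), 35 rows (49.2% of all genes) and 36 rows (51.6% of all genes) lay below 0. These comparisons share the control libraries with the 10 µM one. At 5 µM 4 rows had all exposed libraries below all controls (3.74% of all genes), namely ttn.1, neb, actn3a and mybpc2b, and 2 had them above (3.41% of all genes), pvalb2 and smyd1a.

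The ttn.1 means were 2391 ± 85.2 CPM in controls, 2413 ± 112 after 0.1 µM, 2256 ± 164 after 1 µM, 2193 ± 58.4 after 5 µM and 1529.8 ± 47.9 after 10 µM (SD, n = 3 each). The 5 µM value of ttn.1 was -0.12 on the log2 scale against control (SE 0.0793), which did not pass. For smyd1a the 5 µM libraries, at 196, 188 and 195 CPM, were above the controls, and the 10 µM libraries, at 113, 106 and 114 CPM, were below them. For unc45b the means were 24.3 ± 4.87 CPM in controls, 20.5 ± 3.00 after 0.1 µM, 25.6 ± 4.52 after 1 µM, 22.4 ± 2.24 after 5 µM and 12.7 ± 0.702 after 10 µM, with 10 µM alone below the control libraries.

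Set against 5 µM, 10 µM gave 17 lower rows of 51 (7.34% of all genes) and 0 higher (8.06% of all genes). The lower count was 10 without the 10 µM library numbered 2 and 11 with only the 2 groups compared. For this comparison the shares of all genes were not computed in those settings. This comparison shares its 10 µM libraries with that against control. The log2 fold change was -0.52 (adjusted p = 0.00157, SE 0.0796) in ttn.1, -0.80 (adjusted p = 0.00128, SE 0.116) in smyd1a and -0.82 (adjusted p = 0.00447, SE 0.159) in unc45b. The parvalbumin genes pvalb1 and pvalb2 were lower here, at -0.44 (adjusted p = 0.0349) and -0.36 (adjusted p = 0.0473), while myhz1.2, tnni2a.4 and ldb3a missed the threshold, with adjusted p-values of 0.0573, 0.0555 and 0.0561.

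PFOS 5 µM replicate 3 stood apart within its group. Its smyhc1 level was the third of 1235, 1312 and 796 CPM over the 5 µM replicates, and its smyhc2 level the third of 177, 198 and 103 CPM. The same library was the lowest of all 15 for mybpc1, mybpc2b, mybpha, tnni2b.1 and the chromosome 22 row of myhz1.1, whose 5 µM levels were 669, 718 and 373 CPM. Its slow share of the set's myosin heavy chain counts was 2.19%, against 3.20% and 3.98% in the other 5 µM libraries. Its myhz1.3 level, the third of 3001, 2882 and 3915 CPM, was the highest of all 15. Its mitochondrial share, 5.38%, was also the highest. Leaving it out gave 0 calls at 5 µM against control, as with all libraries.

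Genes near the sarcomere outside the set came from 7 lists; per list, the named genes are those of smallest p past the threshold. Of 39 tested Z-disc, costamere and thin filament genes, 13 were lower and 2 higher at 10 µM, beside 6.65% and 7.78% of all genes, shares against which the counts of the other lists are to be read too. The lower ones included klhl31, which encodes a kelch protein of muscle, at -0.89 (adjusted p = 0.00248, SE 0.152), the Z-disc calsarcin gene myoz1b at -0.66 (adjusted p = 0.00371, SE 0.124), the sarcoglycan gene sgca at -0.75 (adjusted p = 0.00527, SE 0.150) and the caveolar gene cavin4a at -0.97 (adjusted p = 0.00558, SE 0.195). The level of cavin4a was 20.9, 21.7 and 19.3 CPM at 10 µM and 34.7, 51.0 and 35.1 CPM in controls, which did not overlap. Of 26 myogenic factors, 4 were lower and 1 higher. The muscle transcription factor gene mef2cb was lower, at -0.57 (adjusted p = 5.16e-04, SE 0.0769), as were eya4 (-0.44), tbx6 (-0.78) and sox6 (-0.38), whose product represses slow-fibre genes in fast fibres of zebrafish. The myoblast fusion gene mymk was higher, at 0.80 (adjusted p = 0.0458, SE 0.252). It was scarce, with 2.34, 4.22 and 3.28 CPM at 10 µM and 1.60, 1.87 and 2.19 CPM in controls. At 5 µM, where it was not called, mymk had 3.49, 2.64 and 3.10 CPM. Of 32 other sarcomere family members, 3 were lower, a share near that of all genes, and 0 higher: mylz3, the parvalbumin gene pvalb6 at -0.35 (adjusted p = 0.0266, SE 0.0979) and the calpain gene capn3b at -1.38 (adjusted p = 0.0350, SE 0.410). The level of capn3b was 3.46, 4.69 and 4.42 CPM at 10 µM and 6.62, 17.2 and 8.83 CPM in controls.

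Markers of other muscle types were set beside these values. Of 8 tested rows of heart muscle markers, 0 passed in either direction by edgeR, and at an unadjusted p under 0.05 nppa alone was higher (0.42, unadjusted p = 0.0358 in the edgeR fit). Their summed level was 497, 554 and 529 CPM at 10 µM and 548, 547 and 514 CPM in controls, ranges that overlapped. Of 5 smooth muscle markers, acta2 was lower, at -0.50 (adjusted p = 0.00889, SE 0.111), and smtna was higher, at 0.95 (adjusted p = 0.0439, SE 0.297). The scarce smtna had 2.42, 2.89 and 2.75 CPM at 10 µM and 1.37, 1.27 and 1.53 CPM in controls. The summed level of the 5 markers was 295, 327 and 296 CPM at 10 µM and 419, 432 and 337 CPM in controls. Reads of acta2 may be shared with other actin genes. Of 6 skeletal muscle markers outside the set, the calsequestrin gene casq1a, for the calcium store of the sarcoplasmic reticulum, was lower, at -1.09 (adjusted p = 0.00289, SE 0.194), and so was the calcium release channel gene ryr1b, at -0.43 (adjusted p = 0.00653, SE 0.0887); 0 were higher. The part of any other muscle type in the members' values was not tested.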

How the data were processed

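Skeletal muscle sarcomere genes were analysed in 15 libraries. The authors deposited estimated counts for genes and for transcripts, named so in the file headers, in whole numbers that were used as such: gene values differed from the sum of their transcripts by at most 2 reads, in 3.19% of values. RPKM values were deposited too, per the file headers; for the 12 libraries outside 10 µM they were used for lengths and for levels per length. Aligner, counting tool, strand use and genome build: not given in the sources used here. RNA was extracted with RNAzol and libraries were quantified with a KAPA kit, per the labels' protocols. A further 18 per-sample columns of each table were not used. Of 32520 genes, 5419 had no count in any library, and filterByExpr of edgeR passed 21477, and 32275 of 59876 transcripts.

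After TMM scaling, edgeR 4.0.16 (glmQLFit, glmQLFTest; R 4.3.3) was fitted to the counts, all 15 libraries in 1 model of 5 group means. Tests were two-sided, Benjamini-Hochberg adjustment ran over all genes or transcripts tested, and the threshold was 0.05. All adjusted p-values come from this fit unless another tool is named. The SE is the absolute log2 fold change divided by the square root of F. Levels are CPM on TMM-scaled totals. The common dispersion of 0.0168 stands for a coefficient of variation of 13.0%. The fit was also run on simulated counts, drawn independently for each library from the fit's own spread. That run does not show how the fit fares where libraries are paired. The replicate numbers paired control, 0.1 and 1 µM, from the data and not from the labels: deviations from the group means correlated at 0.190 to 0.452 in all 9 same-numbered pairs of libraries and at most at -0.00176 in the 18 others. Deviations within a group sum to 0, so positive same-numbered values push the others below 0. The 18 others are thus not separate evidence of pairing. The members and the 7 lists (143 symbols, 137 found) were chosen with earlier results of these data known, so no p is given for a list. Named genes were the giant scaffold genes, fast and slow counterparts, mybpha, mybphb with its transcripts and every other member past the threshold with per-library values, the remaining members by means or log2 fold changes, and up to 4 genes of smallest p a list, beyond which hsp90aa1.2 and nppa were named after their values were seen. Levels of acta1a, ckma, myhz1.1, myhc4, pvalb1, tcap, mymk, capn3b, smtna and tpma-203 per library were added after their values were seen. Alternatives were DESeq2 1.42.0 size factors or DESeq2 as the tool, other filters, only the 2 groups compared, removal of the length trend (loess, span 0.4), a replicate block, and leaving out each library. Totals of 11956657 to 19978125 counts set the counting precision, and sequenced reads carry no molecular identifiers that the labels mention.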

Additional observations from a re-analysis of the deposited data

How the results depend on the processing

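Of the 18 members lower at 10 µM, 10 passed under all 12 alternatives run (ttn.1, ttn.2, neb, actn3a, myhz1.3, desmb, unc45b, smyd1a, smyd1b and tmod4), and all 18 passed under the 6 that leave out no library. The other 8 lost the call when a library was left out, ckmb on leaving out any of the 6 (highest adjusted p 0.143); mylpfa without control replicate 3 (0.0590); tnnc2 without the 10 µM library numbered 2 (0.0695); acta1b without control replicate 2 or the 10 µM libraries numbered 2 or 4 (highest 0.0791); tnni2a.4 without control replicates 1 or 2 or the 10 µM libraries numbered 2 or 3 (highest 0.136); and myhz1.2, tpma and ldb3a without control replicates 1 or 2 or the 10 µM libraries numbered 2 or 4 (highest 0.0701, 0.106 and 0.141). Leaving out 1 library gave 11 to 16 lower members and 0 to 1 higher, 11 without the 10 µM library numbered 2 and 1 higher (tcap) without the 10 µM library numbered 3 or control replicate 2. With a library left out 2.02 to 5.16% of all genes were lower, 2.02% without the 10 µM library numbered 2. With only the 2 groups compared, 23 members were lower (8.7% of all genes) and 2 higher, tcap and myhc4 (2229 of 20850 genes were higher). Against 5 µM the lower count was 11 with only the 2 groups compared and 10 to 17 with a library left out, 10 without the 10 µM library numbered 2. The higher count there was 0 to 2: pvalb3 without PFOS 5 µM replicate 1, myhc4 and smyhc2 without PFOS 5 µM replicate 2, and tnnt1 without the 10 µM library numbered 3. Transcript counts were 10 to 28 lower and 2 to 5 higher with a library left out (10 and 2 without the 10 µM library numbered 2, 14 and 3 with number 4 left out, 16 and 3 without control replicate 1, 20 lower without control replicate 2, 2 higher without control replicate 3), and 25 and 4 with no filter. The fast median was -0.38 and the giant scaffold median -0.48 with the length trend removed, and with a library left out they ran from -0.34 to -0.24 and from -0.66 to -0.56, the slow median from -0.09 to 0.03. Signs turned for smyhc1 (0.033 with the length trend removed; -0.087 to 0.028 with a library left out, 0.013 without the 10 µM library numbered 2 and 0.028 with number 4 left out), for mybpha (-0.22 to 0.00396, the upper end without the 10 µM library numbered 2) and for mybphb-201 (-0.20 to 0.031, the upper end without control replicate 2); the cause was not tested. Over all genes, leaving out a library lowered the calls from 3098 to between 1047 and 2560. For transcripts and for 10 µM against 5 µM, the shares over all features were not computed in these settings.

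With a replicate block over control, 0.1, 1 and 5 µM, 0 members were higher and 0 lower at 5, 1 and 0.1 µM, and the same held with a block over control, 0.1 and 1 µM alone, a fit added after seeing the data. At an unadjusted p under 0.05 that last fit gave 4 lower and 1 higher at 0.1 µM. At 1 µM it gave 2 lower and 1 higher. The share of all genes at that p was not computed for this fit, so these counts are not read as a result about the members. By adjusted p it called 0 of 21115 genes at 0.1 µM and 1 at 1 µM, and the block changed no member's call. For 5 µM the numbers did not pair the libraries: replicate 1 correlated with its own number at 0.304 to 0.395, but replicates 2 and 3 at -0.137 to 0.0732, while replicate 2 correlated with 0.1 µM replicate 3 at 0.315 and replicate 3 with 0.1 µM replicate 2 at 0.230. No paired analysis was possible for 10 µM because its columns carry other numbers than the titles.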
